A study of Mus musculus with 6 samples.

Results

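The genes described here are 9 of the 23366 genes counted in the study, *Naip1*, *Naip2*, *Naip5*, *Naip6*, *Nlrc4*, *Nlrp6*, *Pycard*, *Casp1* and *Il18*, which encode sensors of the NAIP and NLR families and the proteins that act with them in inflammasomes. They were taken by their gene symbol from a group chosen by its mutant and wild type counts in these same libraries. The differences of these 9 genes between the genotypes are therefore given as a description, without a p-value, and the calls named for them below come from the fit over all genes and support nothing about them. RNA-sequencing was performed on the small intestine epithelium at embryonic day 13.5 of untreated embryos, with 3 libraries for each genotype. The mutant embryos were *Shh-cre-egfp*:*Tcf7l1* lox/lox, and the others wild type. Each library was made from 500 living EpCAM-positive cells, and its cDNA was amplified for 15 PCR cycles. In the mutants, Cre is expressed from the *Shh* locus and removes a floxed exon of *Tcf7l1*, which encodes a repressor of the TCF/LEF family, in the gut epithelium. No library carries Cre with *Tcf7l1* intact, so the Cre allele at *Shh* and the loss of *Tcf7l1* cannot be told apart. Whether the libraries of a group came from separate embryos is not stated, and their spread may be technical.

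Inflammasomes are cytosolic complexes that detect bacteria or cell damage. NAIP proteins bind bacterial flagellin or parts of the needle complex of type III secretion systems and then assemble with NLRC4, and NLRP6 is a related sensor found in the gut epithelium. The sensors recruit the adaptor ASC, encoded by *Pycard*, and the protease caspase-1, which matures interleukin-18 and cuts gasdermin D to open pores in the cell membrane. Epithelial cells of the intestine use this route against enteric bacteria.

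*Tcf7l1*, the targeted gene, had 476, 473 and 363 normalized counts in wild type libraries 1 to 3, and 41.4, 33.0 and 72.9 in mutant libraries 1 to 3 (log2 fold change -3.16, SE 0.26). These are reads on the whole gene and not on the floxed exon alone. Normalized counts are read counts scaled by edgeR's TMM method to the mean library total, and the totals lay between 18216537 and 20397278. The epithelial markers *Epcam* and *Cldn7*, which encode surface and junction proteins, and the keratin gene *Krt8* had mean normalized counts between 21700 and 61570 in both groups. The 10 epithelial markers summed to between 9404 and 10010 CPM in the wild type and between 9415 and 9641 CPM in the mutant group. Of these markers, 4 had a log2 fold change above 0 and 6 below, so the even sums hold opposite differences. *Epcam* and *Cldn7* were higher in every mutant library (log2 fold changes 0.25 and 0.24), and *Krt8* was lower (-0.32). *Cdh1*, *Krt18* and *Cdx2*, named here for being called, were the 3 called lower, beside 5.83% of all tested genes. The wild type libraries held 241 to 254 summed CPM (counts scaled to an equal library total) of 4 Y-linked genes and 0 counts of *Xist*, and the mutant libraries held 0 of the Y-linked genes and 229 to 424 counts of *Xist*. Sex and genotype therefore cannot be told apart in these libraries. Markers of enterocytes, the absorptive cells, moved with the genotype. Their summed CPM lay between 1238 and 1351 in wild type and between 1745 and 1882 in mutant libraries. Of 17 tested enterocyte genes, 7 were called higher and 0 lower, beside 2.78% and 5.83% of all tested genes. Myeloid cells also express inflammasome genes, and the 16 myeloid markers counted, led by *Cd14*, *Cd68* and *Laptm5*, summed to between 13.2 and 15.1 CPM in wild type and between 11.5 and 16.2 CPM in mutant libraries. *Ptprc* and *Adgre1*, which define leukocytes and macrophages and are named here for their zeros, were the 2 of these 16 with 0 counts in every library. The other 14 had counts, *Csf1r* 7 in the wild type and 5 in the mutant libraries summed and *Itgam* 19 and 68, and 0 of the 4 myeloid markers tested was called. Lists of lymphocyte and endothelial markers summed to at most 3.77 and 1.91 CPM in any library. Mesenchymal markers summed to between 53.6 and 83.3 CPM with overlapping groups, but the 3 most counted of them did not move alike. *Vim* was lower in every mutant library (log2 fold change -0.46, SE 0.11). *Pdgfrb* had a log2 fold change of -1.45 (SE 0.77) with overlapping groups. *Acta2* had 488 normalized counts in mutant 3, against 95.1 and 171 in mutants 1 and 2. Of 5 mesenchymal markers tested, 2 lay above 0 and 3 below, and 0 were called. Markers of red blood cells summed to between 1.17 and 1.77 CPM in wild type and between 0.273 and 0.530 CPM in mutant libraries. In bulk samples, fewer cells of a type and less RNA per cell cannot be told apart. The part of these differences in the values below was not tested.

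A gene was called higher or lower where the edgeR quasi-likelihood test gave a Benjamini-Hochberg adjusted p under 0.01 over 12501 tested genes, the log2 fold change was 0.5 or more in size and the mean normalized count reached 50. Of the 9 genes, 8 passed the filter on low counts and *Casp1* did not. *Naip2*, *Naip5*, *Naip6* and *Pycard* met the criteria for a higher gene, beside 2.78% of all tested genes. None of the 8 met those for a lower gene, beside 5.83% of all tested genes. For 6 of the 9 genes, the 4 *Naip* genes, *Pycard* and *Casp1*, every mutant library lay above every wild type library, which was so for 20.8% of all tested genes. For *Nlrc4*, *Nlrp6* and *Il18* the groups overlapped, and for 0 of the 9 genes every mutant library lay below every wild type library, beside 22.2% of all tested genes. The shares of 20.8% and 22.2% are over tested genes only, and *Casp1* was not among them. The median log2 fold change of the 8 genes was 0.89, and that of all tested genes was -0.04. Since the genes were chosen on this contrast, these counts describe the choice.

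**Figure D1:**
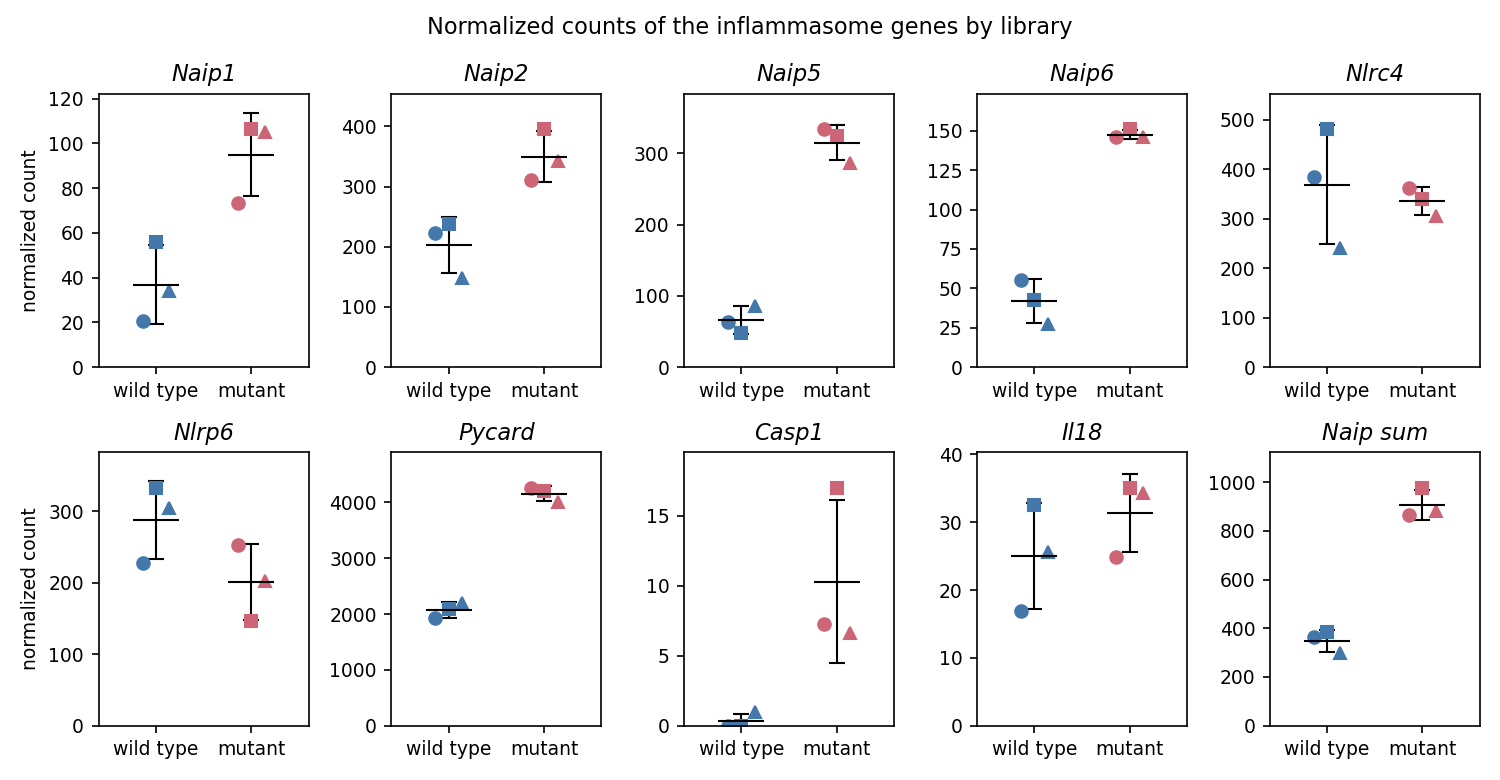
Normalized counts (y axis, from 0, a separate scale in each panel) of the 9 genes and of the sum of the 4 *Naip* genes in the 3 wild type and 3 mutant libraries. Circles, squares and triangles are libraries 1, 2 and 3 of a group, the horizontal line is the mean and the error bars are the SD. The groups are apart for the *Naip* genes, their sum, *Pycard* and *Casp1*, and overlap for *Nlrc4*, *Nlrp6* and *Il18*.

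The 4 *Naip* genes lie in a cluster on the minus strand of chromosome 13, within 302344 bases of the mouse build mm9. *Naip2* (ENSMUSG00000078945) spans chr13:100914018-100972047, *Naip5* (ENSMUSG00000071203) chr13:100981694-101016278, *Naip6* (ENSMUSG00000078942) chr13:101051076-101087629 and *Naip1* (ENSMUSG00000021640) chr13:101177725-101216361. They are paralogues, and their coding sequences are so alike that a short read may match several of them. The coding sequences of *Naip5* and *Naip6* were 97.0% identical over 4212 aligned bases, and those of the other pairs were between 89.5% and 91.9% identical. The longest stretch shared without a difference was 229 bases, in *Naip5* and *Naip6*. The authors counted uniquely mapping reads of 84 bases, so a read that fitted several paralogues equally well was not counted. Of all windows of 84 bases in the exons, 79.2% occurred once in the genome for *Naip1*, 90.7% for *Naip2*, 81.8% for *Naip5* and 85.5% for *Naip6*. The other 5 genes had 100% unique windows. No exon of the 9 genes overlapped an exon of another gene.

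The range of that likeness is shown by the exonic coding windows of 84 bases that differed least and most among the paralogues, read from mm9 in the sense of the genes. Capitals mark the positions at which the 4 genes do not all have the same base. Of 2959 such windows aligned without gaps, the median one held 9 differing positions. The most alike window held 1 differing position and lies at chr13:101197108-101197191 in *Naip1*, chr13:100931847-100931930 in *Naip2*, chr13:100993179-100993262 in *Naip5* and chr13:101070466-101070549 in *Naip6*. *Naip2*, *Naip5* and *Naip6* have the same letters there, so no read of this window tells them apart.
Naip1: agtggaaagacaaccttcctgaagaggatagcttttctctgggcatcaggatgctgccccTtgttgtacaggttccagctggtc
Naip2: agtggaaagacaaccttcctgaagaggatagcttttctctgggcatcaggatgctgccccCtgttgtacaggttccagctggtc
Naip5: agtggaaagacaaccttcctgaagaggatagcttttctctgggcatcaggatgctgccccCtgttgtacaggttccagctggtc
Naip6: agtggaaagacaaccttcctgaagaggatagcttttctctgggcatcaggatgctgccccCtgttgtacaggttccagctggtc
The most different window held 48 differing positions and lies at chr13:101195661-101195744 in *Naip1*, chr13:100930400-100930483 in *Naip2*, chr13:100991732-100991815 in *Naip5* and chr13:101069019-101069102 in *Naip6*. *Naip1* has a base that no other paralogue has at 23 of these positions and *Naip2* at 22, but *Naip5* at 1 and *Naip6* at 2.
Naip1: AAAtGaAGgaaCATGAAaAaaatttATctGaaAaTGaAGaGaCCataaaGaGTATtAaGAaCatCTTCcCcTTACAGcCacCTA
Naip2: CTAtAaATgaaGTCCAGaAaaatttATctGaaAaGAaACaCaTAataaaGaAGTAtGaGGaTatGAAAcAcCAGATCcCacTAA
Naip5: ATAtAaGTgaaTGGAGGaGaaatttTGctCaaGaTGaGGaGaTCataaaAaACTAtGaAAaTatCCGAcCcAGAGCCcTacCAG
Naip6: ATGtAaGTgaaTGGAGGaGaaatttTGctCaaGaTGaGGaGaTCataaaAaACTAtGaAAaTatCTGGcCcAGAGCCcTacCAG
*Naip5* and *Naip6* thus stay close in letters even where *Naip1* and *Naip2* do not.

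*Naip5* had the largest fitted difference of the 8 tested genes. The NAIP5 protein binds flagellin. Its normalized counts were 63.7, 47.5 and 86.4 in wild type libraries 1 to 3, and 334, 324 and 287 in mutant libraries 1 to 3. The groups were far apart, with mutant 3, the lowest mutant library, well above wild type 3, the highest wild type library. The means were 65.8 ± 19.5 (SD, n = 3) and 315 ± 24.7 (SD, n = 3), a ratio of 4.79 and a log2 fold change of 2.26 (SE 0.23).

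*Naip6* encodes another flagellin receptor. Its counts after normalization were 55.2, 42.8 and 27.5 in wild type libraries 1 to 3, and 146, 151 and 146 in mutant libraries 1 to 3. The mutant libraries were nearly level, and all lay above the wild type range. The means were 41.9 ± 13.9 and 148 ± 3.0, a ratio of 3.52 and a log2 fold change of 1.81 (SE 0.30).

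*Naip1* encodes a receptor for the needle protein of type III secretion systems and was the least counted of the paralogues. Its normalized counts were 20.6, 55.9 and 34.2 in wild type libraries 1 to 3, and 73.4, 106 and 105 in mutant libraries 1 to 3. The groups did not overlap, but wild type 2 lay nearer to mutant 1 than to wild type 1. The log2 fold change was 1.36 (SE 0.39), and the gene did not meet the criteria of a call. It did with DESeq2, without the filter on low counts, with a correction for gene length and without wild type 2, where the log2 fold change was 1.79.

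*Naip2* encodes a receptor for the inner rod protein of type III secretion systems and was the most counted paralogue. Its counts after normalization were 223, 237 and 149 in wild type libraries 1 to 3, and 311, 396 and 342 in mutant libraries 1 to 3. Wild type 3 was the lowest library, and the groups did not overlap. The log2 fold change was 0.78 (SE 0.20), the smallest of the 4. *Naip2* met the criteria with all 6 libraries but in none of the fits that left out 1 library, nor with library size as the only scaling. Its log2 fold change lay between 0.62 and 0.91 without 1 library.

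Since reads can be lost or moved between paralogues, the 4 genes were also summed. The sum was 387, 412 and 313 raw counts in wild type libraries 1 to 3, and 836, 919 and 797 in mutant libraries 1 to 3. The normalized mean was 348 ± 45.1 in the wild type and 907 ± 61.1 in the mutant group, a ratio of 2.61 (95% counting interval 2.43 to 2.80) and a log2 fold change of 1.38 (SE 0.13). Since PCR reads without molecular identifiers are not separate molecules, counting intervals cover counting error only. A read placed on the wrong one of these 4 paralogues still counts in the sum. A read that matched several of them, or another place in the genome, equally well is in none. Of the exon windows of 84 bases that were not unique, 461 of 867 in *Naip1* and 377 of 819 in *Naip6* were shared with another of the 4. In *Naip2* and *Naip5* these were 319 of 336 and 553 of 745. Without 1 library, the log2 fold change of the sum lay between 1.30 and 1.46.

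The makeup of the *Naip* counts differed between the groups as well. *Naip2* gave 61.5%, 61.9% and 50.2% of them in wild type libraries 1 to 3, and 36.0%, 40.5% and 38.9% in mutant libraries 1 to 3. *Naip5* gave 17.6%, 12.4% and 29.1% in wild type libraries 1 to 3, and 38.6%, 33.2% and 32.6% in mutant libraries 1 to 3. For both genes the groups did not overlap. *Naip6* gave 11.9% ± 3.06 of the counts in wild type and 16.3% ± 0.745 in mutant libraries. Its groups did not overlap either, but they nearly met, with 15.2% in wild type 1 and 15.5% in mutant 2. *Naip1* gave 10.6% ± 4.51 in wild type and 10.4% ± 1.76 in mutant libraries, and its groups overlapped. These shares follow from the same counts as the fold changes.

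**Figure D2:**
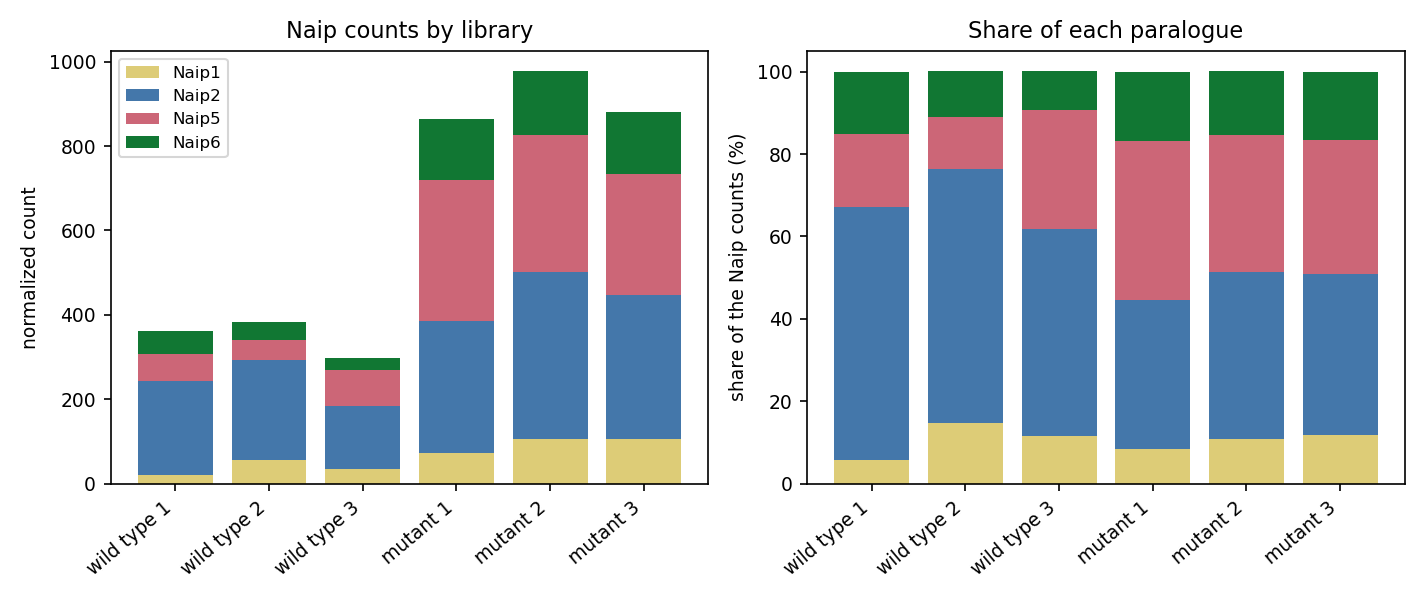
Stacked normalized counts of *Naip1*, *Naip2*, *Naip5* and *Naip6* in each library (left, y axis from 0) and the share of each gene in the summed *Naip* counts (right, %). The stacks are 362, 384 and 297 normalized counts high in wild type and 864, 977 and 880 in mutant libraries, and *Naip2* takes at least 50.2% in wild type and at most 40.5% in mutant libraries.

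*Nlrc4* (ENSMUSG00000039193, chr17:74825635-74858448, minus strand) encodes the protein that polymerizes once a NAIP receptor has bound its ligand. Its normalized counts were 385, 481 and 241 in wild type libraries 1 to 3, and 363, 340 and 306 in mutant libraries 1 to 3. All mutant libraries lay inside the wild type range, which was wide. The log2 fold change was -0.13 (SE 0.21, 95% interval -0.57 to 0.31). It turned to 0.08 with a correction for gene length and to 0.10 without wild type 2. For each count of *Nlrc4*, the libraries held 0.942, 0.797 and 1.23 *Naip* counts in wild type libraries 1 to 3, and 2.38, 2.87 and 2.88 in mutant libraries 1 to 3. Per kilobase of exon, this ratio was at most 0.922 in wild type and at least 1.73 in mutant libraries.

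*Nlrp6* (ENSMUSG00000038745, chr7:148106801-148114439, plus strand) encodes a sensor that is prominent in enterocytes and goblet cells. Its counts after normalization were 228, 333 and 305 in wild type libraries 1 to 3, and 253, 147 and 203 in mutant libraries 1 to 3. Mutant 1 lay above wild type 1, so the groups overlapped. The log2 fold change was -0.52 (SE 0.22) and lay between -0.72 and -0.30 over the alternatives. It did not meet the criteria of a call in any of them.

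*Pycard* (ENSMUSG00000030793, chr7:135135617-135137381, minus strand) encodes ASC, the adaptor that links sensors to caspase-1. Its normalized counts were 1921, 2097 and 2205 in wild type libraries 1 to 3, and 4263, 4211 and 3999 in mutant libraries 1 to 3. It had the most counts of the 9 genes and the smallest SE of the 8 tested ones, and the lowest mutant library was far above the highest wild type library. The means were 2074 ± 143 and 4158 ± 140, a ratio of 2.0 and a log2 fold change of 1.0 (SE 0.08). *Pycard*, *Naip5* and *Naip6* met the criteria in all 12 alternative fits.

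*Casp1* (ENSMUSG00000025888, chr9:5298517-5307265, plus strand) encodes caspase-1, the protease of the complex. It had 0, 0 and 1 raw counts in wild type libraries 1 to 3, and 7, 16 and 6 in mutant libraries 1 to 3. The groups did not overlap, but the sums of 1 and 29 counts allow a ratio anywhere between 5.46 and 1350 from counting error alone (95% interval). With a mean of 5.31 normalized counts, *Casp1* was removed by the low-count filter. Without the filter its log2 fold change was 4.57 (SE 1.65) in edgeR and 4.96 (SE 1.75) in DESeq2, and it was called in neither. A mean under 50 is enough to bar a call. Whether the adjusted p would also have barred it is not given here.

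*Il18* (ENSMUSG00000039217, chr9:50383378-50389942, plus strand) encodes interleukin-18, which caspase-1 matures and which epithelial cells hold in store. Its counts after normalization were 16.9, 32.6 and 25.6 in wild type libraries 1 to 3, and 24.8, 35.1 and 34.2 in mutant libraries 1 to 3. The groups overlapped, and no difference was detected. The log2 fold change was 0.32 (SE 0.50, 95% interval -0.74 to 1.39).

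**Figure D3:**
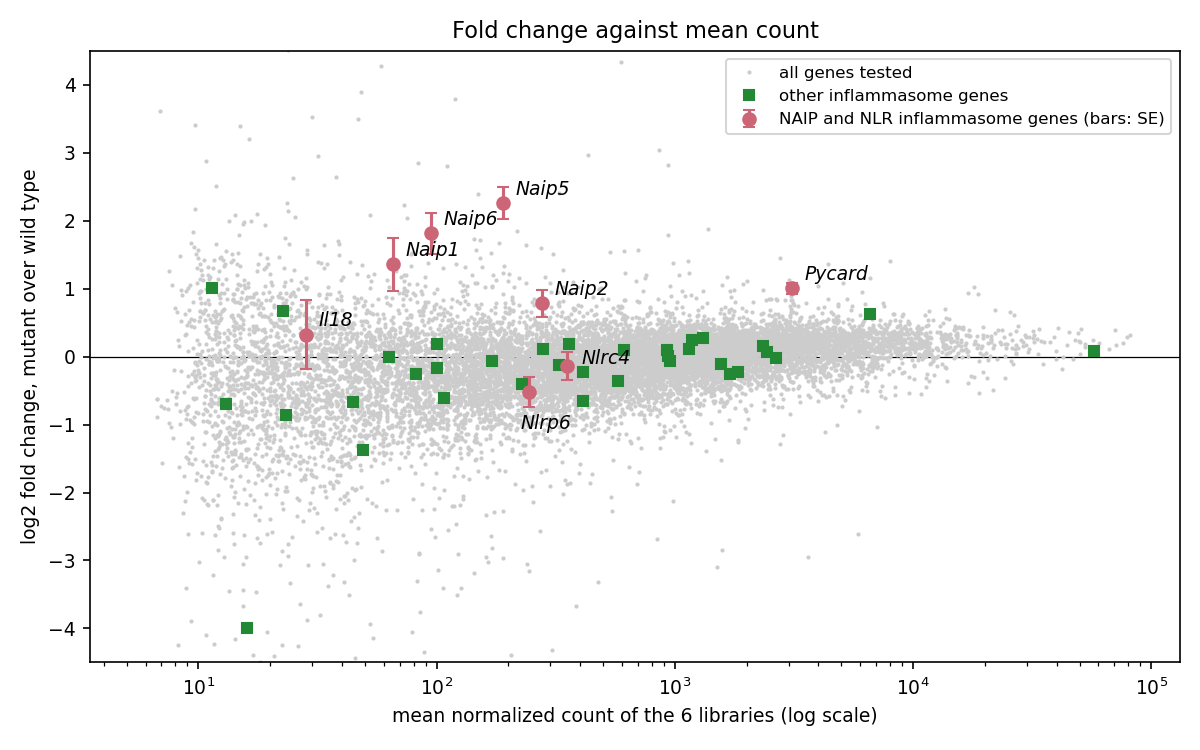
Log2 fold change of mutant over wild type (y axis) against the mean normalized count of the 6 libraries (x axis, log scale) for the 12501 tested genes (grey), the 35 tested genes of the list of other inflammasome genes (green squares) and the 8 tested genes described here (red circles, bars are the SE). *Casp1* did not pass the filter and is not drawn, nor are 42 tested genes beyond 4.5 on either side; *Naip5*, *Naip6*, *Naip1*, *Pycard* and *Naip2* lie above 0.5, and *Nlrc4*, *Nlrp6* and *Il18* have smaller or negative values.

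Levels were compared between the genes as CPM per kilobase of exon, with exon lengths from an annotation of mm9. *Pycard* stood highest in wild type libraries at 75.7 ± 5.23 CPM per kilobase, higher than 90.3% of 11874 tested genes with a length. *Nlrc4* at 4.93 ± 1.62 and *Nlrp6* at 3.87 ± 0.734 CPM per kilobase followed and overlapped each other. *Naip2* at 2.16 ± 0.504 and *Il18* at 1.83 ± 0.576 CPM per kilobase came next and overlapped, and both lay below every *Nlrp6* value. *Naip5* at 0.649 ± 0.193, *Naip1* at 0.353 ± 0.170 and *Naip6* at 0.314 ± 0.104 CPM per kilobase came last before *Casp1*, each overlapping its neighbour in this order. *Casp1* was at 0.0108 ± 0.0188 CPM per kilobase. Of the 9 genes, *Pycard* alone had a mean above 50 CPM per kilobase in either group, so with a minimum of that kind in place of the mean normalized count *Naip2*, *Naip5* and *Naip6* would not be called.

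In mutant libraries the receptors stood closer to *Nlrc4*. *Naip5* reached 3.11 ± 0.243 CPM per kilobase, at the 38.9th percentile of tested genes, from the 13.7th in wild type. *Pycard* reached 152 ± 5.11 CPM per kilobase, and *Nlrc4* was at 4.49 ± 0.383. The length of *Il18* is uncertain, because its start in RefSeq lies 20573 bases upstream of the start in this annotation.

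The promoters of the 9 genes were read from RefSeq (table of build GRCm38.p6, 250 bases before to 50 after the start), and each matched mm9 once without a difference. They were searched on both strands for 4 forms of the TCF/LEF motif, CTTTGAA with the variants CTTTGAT and also CTTTGTA and lastly CTTTGTT, and for GAAANNGAA, the core of the interferon-stimulated response element (ISRE). None of these strings contains another. A TCF/LEF form was present in 3 of the 9 promoters, those of *Nlrc4*, *Casp1* and *Il18*, and in 16.9% of 32851 promoters. The ISRE core was present in 1 of the 9, that of *Naip2*, and in 8.56% of all promoters. *Naip1*, *Naip5*, *Naip6*, *Nlrp6* and *Pycard* held neither in this window. A match is a string of letters and not a measured binding site.

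The *Naip2* and *Naip5* promoters are shown because they are the most alike of the *Naip* promoters, 64.1% identical over 290 aligned positions, although the fold changes of the genes differed. That of *Naip2* lies at chr13:100972028-100972327 and that of *Naip5* at chr13:101017242-101017541 of mm9, both on the minus strand. Capitals mark the ISRE core, which lies on the opposite strand of *Naip2*.
Naip2: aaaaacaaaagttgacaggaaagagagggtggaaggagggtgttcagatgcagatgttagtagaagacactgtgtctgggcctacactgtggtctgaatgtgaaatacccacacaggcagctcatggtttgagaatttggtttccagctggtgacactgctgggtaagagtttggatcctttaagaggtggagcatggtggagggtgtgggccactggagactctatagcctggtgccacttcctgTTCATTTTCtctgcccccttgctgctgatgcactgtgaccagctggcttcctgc
Naip5: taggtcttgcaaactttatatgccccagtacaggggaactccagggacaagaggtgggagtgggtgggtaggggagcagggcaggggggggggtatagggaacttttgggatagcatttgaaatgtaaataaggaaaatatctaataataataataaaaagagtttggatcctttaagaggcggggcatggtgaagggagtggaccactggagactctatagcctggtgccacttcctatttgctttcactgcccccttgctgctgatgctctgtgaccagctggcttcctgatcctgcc
The other pairs were between 34.5% and 60.5% identical. RefSeq starts *Naip5* 1013 bases and *Naip1* 6458 bases upstream of the start in the mm9 annotation, and *Naip6* 1058 bases downstream of it, so these windows depend on the start that is taken.

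Genes around the *Naip* cluster were taken from the same edgeR fit, to set the values of the paralogues beside those of their surroundings. Within 1000000 bases on either side the annotation holds 28 genes, of which 21 were counted and 18 tested. *Gtf2h2*, *Serf1* and *Ccnb1* were called higher, 3 of 18, beside 2.78% of all tested genes. None of the 18 was called lower, beside 5.83% of all tested genes. *Gtf2h2*, a subunit gene of the transcription factor TFIIH and the nearest tested gene after *Naip1* at 13812 bases, had 2467, 2366 and 3010 normalized counts in wild type libraries 1 to 3. In mutant libraries 1 to 3 it had 4372, 4902 and 4285, above every wild type library (log2 fold change 0.79, SE 0.09, adjusted p = 1.9e-05). It was called in all 12 alternative fits.

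*Serf1* had 1018 ± 90.4 normalized counts in wild type and 1457 ± 128 in mutant libraries, a log2 fold change of 0.52 (SE 0.10, adjusted p = 0.0021), and lost the call in 6 of the 12 alternatives, with log2 fold changes between 0.41 and 0.60. *Ccnb1*, which encodes the mitotic cyclin B1, rose by 0.54 on the log2 scale (SE 0.08, adjusted p = 1.1e-04), from a mean of 6849 ± 711 to 9964 ± 225, and lost the call without wild type 1 and with library size as the only scaling. *Smn1*, an RNA-binding protein gene 6373 bases before *Naip2* and the nearest tested gene on that side, had 2697 ± 323 and 3500 ± 191 normalized counts. Its log2 fold change of 0.38 (SE 0.09, adjusted p = 0.0056) was under the fold criterion. Over the 18 neighbours the median log2 fold change was 0.21, beside -0.04 for all tested genes. The neighbours ranged from -0.37 to 0.79, and 15 were above 0. Of the *Naip* genes, *Naip2* had a log2 fold change within that range and *Naip1*, *Naip5* and *Naip6* lay above it.

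**Figure D4:**
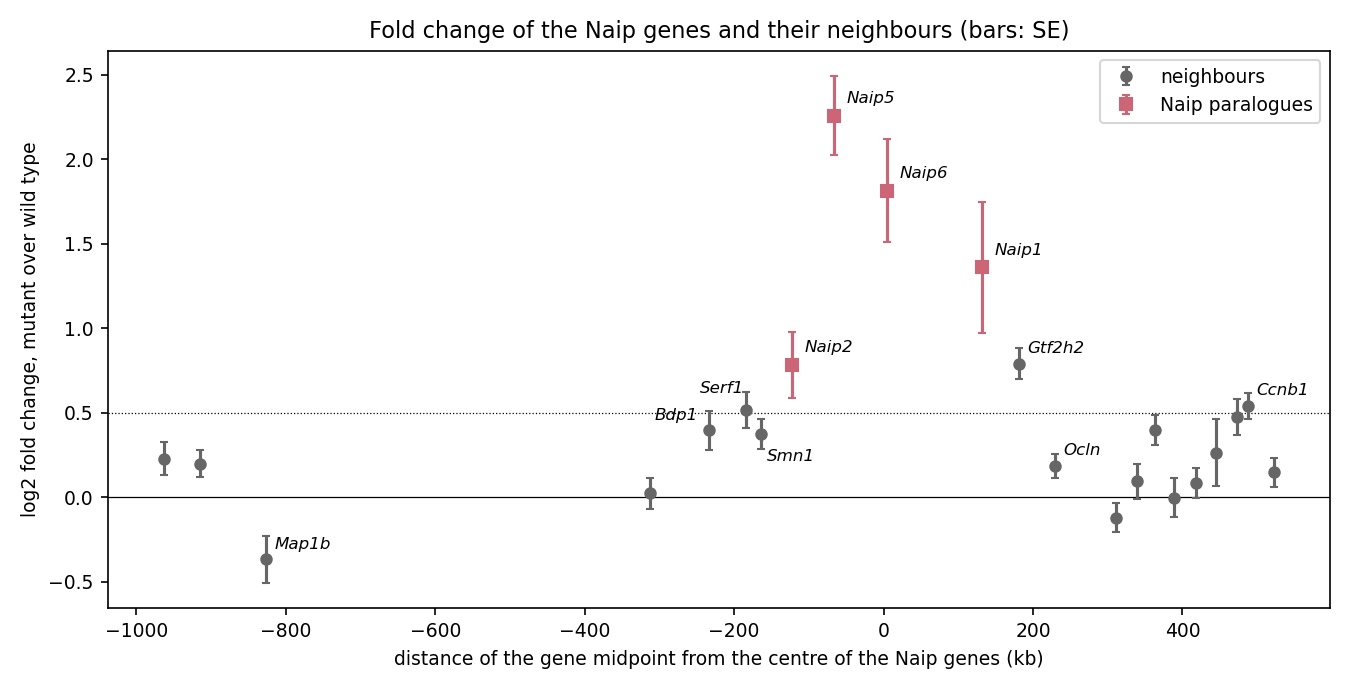
Log2 fold change of mutant over wild type (y axis, bars are the SE) of the 4 *Naip* genes (red squares) and 18 tested neighbours (grey circles) against the distance of the gene midpoint from the centre of the *Naip* genes (x axis, kb). The dotted line is the log2 fold change of 0.5 that a call needs; *Gtf2h2* at 0.79 is the highest neighbour, level with *Naip2* at 0.78, and *Naip5* at 2.26 is the highest gene.

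The list of other inflammasome genes held 81 genes, taken by role or for a BIR domain like that of NAIP. Of these, 78 were counted, 20 had 0 counts in every library and 35 were tested. Of these 35, 1 gene was called higher, *Birc5*, beside 2.78% of all tested genes. None was called lower, beside 5.83% of all tested genes. *Birc5* is on the list for its BIR domain and encodes a subunit of a mitotic complex. Among the sensors, effectors, cytokines and receptors, and regulators, 0 genes were called. The median log2 fold change of the 35 genes was -0.07, and 15 were above 0 and 20 below. By the edgeR test 10 of the 35 had an unadjusted p under 0.05. The share of all tested genes under that value is not given here, so this count says nothing particular to the list.

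Among the other sensors, 30 were counted, 13 had no count and 6 were tested, with 0 called. Among those with 0 counts were *Nlrp3*, the best studied sensor of macrophages, and *Mefv*, the sensor pyrin, both named here after their values were seen. *Myd88*, the adaptor of Toll-like receptors, *Tlr5*, the surface receptor for flagellin, and *Nod1*, a sensor of peptidoglycan, had the most counts of this list. *Myd88* had 1106 ± 28.2 and 1197 ± 92.0 normalized counts in wild type and mutant libraries (log2 fold change 0.11, adjusted p = 0.42). *Tlr5* had 107 ± 55.4 and 94.7 ± 12.9 (log2 fold change -0.17, adjusted p = 0.75), with a wide wild type spread. *Nod1* had 54.9 ± 32.2 and 34.4 ± 25.7 normalized counts, and its groups overlapped.

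Of the effectors, which cut or form membrane pores, 8 were tested and 0 called. *Casp8*, an apoptotic caspase that can also bind ASC, had 2685 ± 138 and 2638 ± 178 normalized counts in wild type and mutant libraries. *Gsdmd*, the gasdermin cut by caspase-1, had 1086 ± 45.7 and 1283 ± 27.1 (log2 fold change 0.24, SE 0.09, adjusted p = 0.067). *Ninj1*, which ruptures the membrane of dying cells, had 1183 ± 51.0 and 1432 ± 82.4 (log2 fold change 0.27, SE 0.09, adjusted p = 0.039). The caspase-1 substrate *Gsdmd* was thus well counted in both groups, and *Casp1* itself had at most 16 raw counts in any library.

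Of the cytokines and their receptors, 3 were tested and 0 called, and *Il1b*, the other main substrate of caspase-1, named here after its values were seen, had 0 counts in every library. *Il1r1*, *Il33* and *Il1rap* had log2 fold changes of -0.61 (SE 0.34), 0.18 (SE 0.38) and -0.25 (SE 0.32), with overlapping groups. Of the regulators, 13 were tested and 0 called. *Hsp90ab1* and *Sugt1*, chaperones of NLR proteins, and *Brcc3*, a deubiquitinase, had log2 fold changes of 0.08, 0.15 and 0.07, with SE between 0.06 and 0.09.

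Proteins that share the BIR domain with NAIP had 5 tested genes, of which *Birc5* was called. *Birc5* encodes survivin, a subunit of the chromosomal passenger complex in mitosis, and rose by 0.62 on the log2 scale (SE 0.08, adjusted p = 7.4e-05). The wild type mean was 5174 ± 585 normalized counts and the mutant mean 7974 ± 535. *Birc2*, *Birc6* and *Xiap*, inhibitors of cell death, had log2 fold changes of 0.01, 0.18 and -0.22.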

How the data were processed

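RNA-sequencing read counts were used for 6 libraries, 3 mutant and 3 wild type. The authors mapped 84-base reads with STAR 2.5.2b to mm9, used featureCounts 1.5.1 and a UCSC gene model to count the reads that mapped uniquely, and deposited these raw counts. Whether counting used strand, and the sex, litter and background of the embryos, are not given in the sources used here. The study's text asks for an RPKM of at least 50. Since its own gene lists hold genes under that value, genes were instead required to reach 50 normalized counts on average.

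Genes were fitted on genotype with edgeR 4.0.16 in R 4.3.3 (TMM, filterByExpr, quasi-likelihood test, Benjamini-Hochberg adjustment over 12501 genes), after a test on simulated data. The members and lists were chosen with earlier results of these data known. All 9 genes were named. Of the pathway lists, every called gene and the 3 uncalled ones with the most counts were named. Of marker lists it was the 3 with the most counts (given here for the epithelial, mesenchymal and myeloid lists only). Of the neighbours it was every called gene and the nearest tested one on each side. Alternatives were DESeq2 1.42.0, other scalings, no filter, a replicate block, a loess correction for gene length (span 0.5), other thresholds and leaving out each library. Positions come from an mm9 annotation that names 90.9% of the genes. Coding sequences were aligned with MAFFT 7.526. Genes outside this rule were named after their values were seen. Protein sequences were not used here.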

Additional observations from a re-analysis of the deposited data

How the results depend on the processing

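Between 3 and 5 of the 9 genes were called higher, and 0 lower, over all alternatives run. *Naip5*, *Naip6* and *Pycard* kept their calls in all of these. *Casp1* was tested only with DESeq2 and without the filter on low counts. Of 12501 tested genes, 348 were called higher in the main fit, 200 with library size as the only scaling and 834 with the correction for gene length. DESeq2 called 410 of 17112 higher. The 9 genes were chosen on this contrast, so their counts describe the choice. The log2 fold change of the *Naip* sum rose to 1.61 with the correction for gene length, which moved the median of all genes by 0.14 and the share of calls that are higher from 32.3% to 67.3%; with library size as the only scaling the shift was -0.11 and the share 17.3%. Of the 405 and 957 genes called lower under these scalings, against 729 otherwise, none is among the 9. Of the *Naip* neighbours, 1 was called higher with library size as the only scaling, 0 where a log2 fold change of 1 was required, and between 1 (without wild type 1) and 5 (without wild type 3) without 1 library. Of the other inflammasome genes, 0 were called higher where a log2 fold change of 1 was required. With no minimum mean count 1 was called lower, *Nlrp4f*, and between 0 and 1 without 1 library, the 1 being *Dpp9* without mutant 1. Counts of all called genes lay between 260 and 516 higher and between 405 and 867 lower without 1 library.

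Same-numbered libraries did not deviate together (correlations 0.04, -0.08 and -0.04). No pairing by number was seen, but with 3 libraries in a group a weak one could be missed. With the replicate number as a block the *Naip* sum was 1.39 and 339 genes were called higher and 691 lower. The cause of these changes was not tested. *Casp1* and *Il18* had means under 50 normalized counts over the 6 libraries, which alone bars a call. The log2 fold change of *Il18*, 0.32, was also under 0.5.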

Other observations

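The 2 genes below, both on the list of other inflammasome genes, were chosen after their values were seen. *Nlrp4f*, an NLR gene of the *Nlrp4* family, had 32.8, 30.7 and 27.5 normalized counts in wild type libraries 1 to 3, and 0, 3.19 and 2.21 in mutant libraries 1 to 3. The groups did not overlap, and the edgeR test gave an adjusted p of 0.0021, but the mean was under 50. *Nlrp10* had 0 counts in every wild type library and 4.13, 27.6 and 0 normalized counts in mutant libraries 1 to 3, so that mutant 2 held most of them and mutant 3 had none.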
